A study of Mus musculus with 7 samples.

Results

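The expression of 10 genes of the VEGF and angiopoietin families was followed in the lungs of bleomycin-challenged mice with and without hyperbaric oxygen (HBO, oxygen breathed in a pressure chamber). They were chosen by gene family, not by a measured level, from the 55401 genes of the count table. Earlier results of these data were known when they were chosen. They comprised 6 ligands (*Vegfa*, *Vegfb*, *Vegfc*, *Vegfd*, *Angpt1*, *Angpt2*) and 4 receptors (*Kdr*, *Flt1*, *Flt4*, *Tek*). All mice were male C57BL/6, aged 6 to 8 weeks, and had been given bleomycin, an antibiotic used as a drug against tumours and known to scar the lung. The study split bleomycin mice at random on day 7, and the sequenced lungs came from 4 BLM mice and 3 BLM+HBO mice. The BLM+HBO mice breathed oxygen at 2.5 ATA for 90 min a day on 14 days, and all lungs were taken on day 21. The sample records place the BLM mice in the chamber without pressurized oxygen, whereas the study's methods describe untreated mice, and which applied was not settled here. Both groups carried bleomycin, so the comparison asks what HBO adds to an injured lung and holds no uninjured lung.

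VEGF ligands are secreted dimers that bind receptor tyrosine kinases on endothelial cells. Vegfa signals mainly through Kdr, the receptor that drives endothelial growth and permeability, while Flt1 binds the same ligand tightly with weak kinase activity and can act as a decoy. Vegfb binds Flt1, and Vegfc and Vegfd act through Flt4, the receptor best known from lymphatic vessels. In the adult lung, alveolar epithelium is a main source of Vegfa and capillary endothelium carries Kdr. Angpt1, made by cells around vessels, activates the endothelial receptor Tek and keeps vessels quiet, whereas Angpt2, made by endothelial cells, can oppose it. *Vegfa* is also a textbook target of the hypoxia-inducible factors (HIF).

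Promoters are shown for 3 of the 10 genes: *Vegfc*, the gene that separated the groups, *Vegfa*, the most abundant member, and *Kdr*, the main receptor for Vegfa. Each is the stretch of 250 bases before the first RefSeq start, on GRCm38.p6 and read 5′ to 3′ on the gene's strand. Capitals mark GGGCGG (a GC box, CCGCCC on the other strand) and GCGTG (a core of HIF sites), and no marked stretch overlaps another. The windows lie at chr8:54077282-54077531 on the plus strand, chr17:46032378-46032627 on the minus strand and chr5:75978456-75978705 on the minus strand.
*Vegfc*: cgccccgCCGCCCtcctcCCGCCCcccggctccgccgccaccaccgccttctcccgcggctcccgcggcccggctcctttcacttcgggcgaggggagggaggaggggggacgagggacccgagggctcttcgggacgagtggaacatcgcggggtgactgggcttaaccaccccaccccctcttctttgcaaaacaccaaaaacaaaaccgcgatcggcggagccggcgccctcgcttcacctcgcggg
*Vegfa*: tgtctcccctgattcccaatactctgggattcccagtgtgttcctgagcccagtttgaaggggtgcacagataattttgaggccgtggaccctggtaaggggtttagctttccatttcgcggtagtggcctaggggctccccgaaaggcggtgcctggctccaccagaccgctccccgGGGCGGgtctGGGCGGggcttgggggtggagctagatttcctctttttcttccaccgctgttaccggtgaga
*Kdr*: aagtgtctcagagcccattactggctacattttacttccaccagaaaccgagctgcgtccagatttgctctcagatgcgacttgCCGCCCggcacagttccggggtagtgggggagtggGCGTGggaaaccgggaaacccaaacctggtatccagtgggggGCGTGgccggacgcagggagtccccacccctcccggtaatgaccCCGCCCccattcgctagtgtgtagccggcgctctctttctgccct
The *Vegfc* window was 71.6% G or C, above 92.7% of the 32851 mouse promoters, and held 2 GC boxes at its far end, at -243 and -232 from the start. The *Vegfa* window was 59.2% G or C with 2 GC boxes at -72 and -62. A second RefSeq start of *Vegfa*, whose window at chr17:46025164-46025413 is not shown, had GCGTG at -218, ACGTG at -211 on the other strand and 1 GC box. The *Kdr* window was 61.6% G or C and held 2 GC boxes and 2 GCGTG cores, the latter at -131 and -89. Over all promoters of this length, on both strands, 32.7% held GGGCGG, 28.2% held GCGTG, 16.6% held ACGTG and 38.6% held either HIF core. Neither HIF core occurred in the *Vegfc* window or the first *Vegfa* window, which says only that these letters are not within them. RefSeq promoters were found for 8 of the 10 genes.

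Depth was similar between the groups except for a single deep library. BLM libraries held 18436336 to 19002242 counted reads, and BLM+HBO 1, 2 and 3 held 18157161, 20632391 and 26365969. The mouse BLM+HBO 2 lay nearest to the BLM mice on the first principal component, at -0.996 against -47.6 to -6.08 for BLM and 54.8 and 37.8 for the other BLM+HBO mice. Heart muscle genes summed to 79 to 222 CPM (the read count scaled to a common library size) in BLM and 185 to 815 in BLM+HBO, with 13 of 15 higher at P below 0.05. Fibroblast markers summed to between 6902 and 10545 CPM in BLM and between 3752 and 7336 in BLM+HBO, with 2 of 12 higher and 7 lower at P below 0.05, and a total of 2 without BLM 1 or BLM+HBO 1. Their part in the results that follow was not tested. Of 17465 genes tested with edgeR's quasi-likelihood test, 1861 (10.7%) had an unadjusted P below 0.05, 893 (5.11%) with a higher and 968 (5.54%) with a lower level under HBO. At P below 0.05 with a fold change above 1.5 there were 1098 (6.29%), and for 1531 genes (8.77%) the values of both groups were fully separate. No gene had an adjusted P below 0.05 by edgeR or limma-trend, the lowest edgeR value being 0.423, while DESeq2 gave 151.

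The 10 genes differed little between the groups. *Vegfc* alone had an unadjusted P below 0.05 and alone had groups that did not overlap, and it was lower in BLM+HBO. A count of 1 member of 10 is close to the background shares of 10.7% and 8.77%, so these counts do not set the family apart. All 10 passed the filter on low counts, with 292 to 29953 reads per mouse. By fitted value 6 were higher and 4 lower in BLM+HBO, with a median log2 fold change of 0.03 against 0.0071 over all genes tested. None had an adjusted P below 0.05 or a fitted fold change above 1.5. The 95% interval lay within 1.5-fold in either direction for *Vegfb*, *Vegfd*, *Flt1*, *Angpt1* and *Tek*, and it held a 1.5-fold change for the other 5. No interval reached a 2-fold change. Because the tissue is a mixture, fewer cells of a type and less RNA per cell cannot be told apart for any of these genes.

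**Figure D1:**
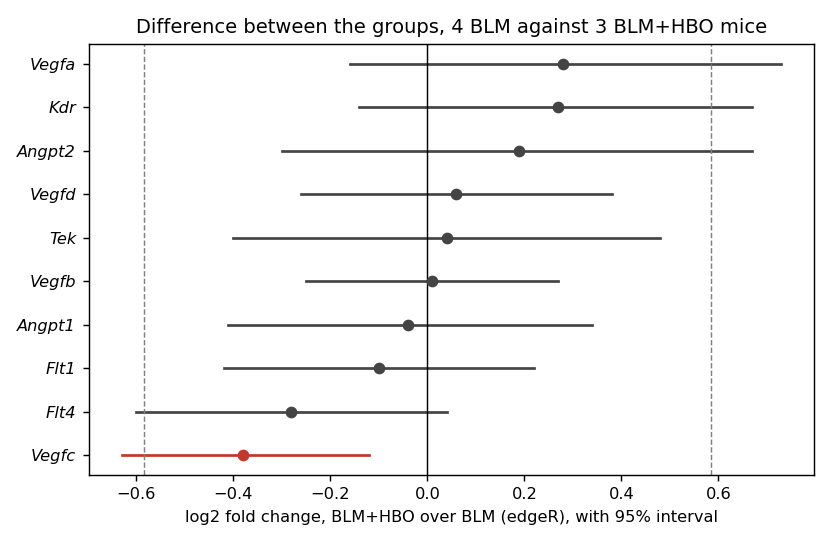
Log2 fold change of each of the 10 genes, BLM+HBO over BLM, from edgeR with its 95% interval (horizontal axis, log2 units), in order of size. Dashed lines mark a fold change of 1.5 in either direction, and the interval of *Vegfc* (red), from -0.63 to -0.12, is the one that leaves out 0.

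*Vegfc*, the ligand that drives lymphatic growth, was 23.1% lower in BLM+HBO. The gene (ENSMUSG00000031520.6) lies on chromosome 8 from 54077606 to 54187096 on the plus strand of GRCm38, with 2449 exonic bases. Its level, as CPM with normalization by TMM, was 34.6, 36.3, 31.7 and 29.9 in BLM 1 to 4 and 24.3, 26.3 and 25.9 in BLM+HBO 1 to 3. Every BLM+HBO mouse lay below every BLM mouse, BLM+HBO 2 included. The means were 33.1 ± 2.88 (SD, n = 4) and 25.5 ± 1.06 (SD, n = 3) CPM. The log2 fold change was -0.38 (SE 0.11, 95% interval -0.63 to -0.12), with adjusted P = 0.423 by edgeR's quasi-likelihood test. DESeq2 gave adjusted P = 0.194. The unadjusted P for *Vegfc* stayed below 0.05 in every alternative fit, and the adjusted P ranged from 0.194 to 0.802. Without BLM+HBO 1, which had the highest heart muscle sum, the log2 fold change of *Vegfc* was -0.34 (adjusted P = 0.802 by edgeR). That fit kept BLM+HBO 2, whose heart muscle sum of 640 CPM also lay above every BLM mouse, and the part of those genes was not tested.

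*Flt4*, the receptor for Vegfc and Vegfd, lies on chromosome 11 from 49609263 to 49652739 (plus strand, 8232 exonic bases, ENSMUSG00000020357.3). Its level was 105, 86.6, 71.9 and 76.0 CPM in BLM 1 to 4 and 62.4, 72.4 and 74.4 CPM in BLM+HBO 1 to 3. BLM 1 was the highest mouse and BLM+HBO 1 the lowest, and the groups overlapped through BLM 3. The means of *Flt4* were 84.8 ± 14.7 (SD, n = 4) and 69.8 ± 6.41 (SD, n = 3) CPM, a log2 fold change of -0.28 (SE 0.14, 95% interval -0.60 to 0.04). edgeR's quasi-likelihood test gave adjusted P = 0.513. When BLM 3 was left out, *Flt4* had a log2 fold change of -0.35, with an unadjusted P below 0.05 and adjusted P = 0.398 by edgeR. Without BLM 1 the log2 fold change was -0.16 (adjusted P = 0.77 by edgeR), and without BLM+HBO 1 it was -0.21 (adjusted P = 0.821 by edgeR).

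The other ligand of Flt4, *Vegfd*, did not separate the groups. It lies on the X chromosome from 164373378 to 164402650 (plus strand, 2408 exonic bases, ENSMUSG00000031380.10). Its level was 37.0, 46.9, 38.6 and 41.9 CPM in BLM 1 to 4 and 37.7, 52.1 and 38.5 CPM in BLM+HBO 1 to 3. BLM+HBO 2 was the highest mouse, and both other BLM+HBO mice lay within the BLM range. For *Vegfd* the log2 fold change was 0.06 (SE 0.14, 95% interval -0.26 to 0.38; adjusted P = 0.917 by edgeR).

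*Vegfa* was the most abundant member in every mouse. It lies on chromosome 17 from 46016993 to 46032369 on the minus strand, with 4285 exonic bases (ENSMUSG00000023951.18). The level was 576, 714, 901 and 1010 CPM in BLM 1 to 4 and 888, 911 and 1123 CPM in BLM+HBO 1 to 3. The BLM mice themselves differed widely, BLM 1 being the lowest of all, and BLM 3 and BLM 4 lay among the BLM+HBO mice. Mean levels of *Vegfa* were 800 ± 193 (SD, n = 4) and 974 ± 130 (SD, n = 3) CPM. The log2 fold change was 0.28 (SE 0.20, 95% interval -0.16 to 0.73), with adjusted P = 0.626 by edgeR's quasi-likelihood test. The coefficient of variation of *Vegfa* was 24.1% among the BLM mice and 13.3% among the BLM+HBO mice.

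Other HIF targets were tallied beside *Vegfa*. Of 19 tested, none was higher and 5 were lower in BLM+HBO at P below 0.05, against 5.11% and 5.54% of all genes, and their median log2 fold change was -0.30. These were *Eno1*, *Pgam1*, *Ldha* and *Tpi1*, enzymes of glycolysis, and *Mif*, a cytokine. *Eno1* was at 486, 368, 377 and 350 CPM in BLM 1 to 4 and at 236, 331 and 236 CPM in BLM+HBO 1 to 3, with no overlap (log2 fold change -0.56, SE 0.17, adjusted P = 0.423 by edgeR). The fitted value of *Vegfa* thus had the opposite sign to 16 of the 19 targets on this list, with an interval that included 0. The list does not hold every gene induced by hypoxia. *Hilpda*, which is not on it, was higher at P below 0.05 (log2 fold change 0.46, SE 0.17, adjusted P = 0.434 by edgeR). Without BLM+HBO 2 the number of lower targets was 11, without BLM+HBO 1 or BLM+HBO 3 it was 3, and with a fold change above 1.5 also required it was 0. The study had examined HIF targets in these mice, so their direction is not independent evidence. The study's HIF score, which it reported as lower with HBO, has *Vegfa* among its genes.

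*Vegfb*, a ligand of Flt1 linked to heart and fat tissue, was the steadiest member among the BLM mice. It lies on chromosome 19 from 6982473 to 6987651 (minus strand, 1605 exonic bases, ENSMUSG00000024962.13). Its level was 27.1, 26.8, 26.1 and 26.1 CPM in BLM 1 to 4 and 25.0, 25.1 and 30.2 CPM in BLM+HBO 1 to 3. The BLM range was narrow, with BLM+HBO 3 above it and the other BLM+HBO mice below. *Vegfb* had a log2 fold change of 0.01 (SE 0.12, 95% interval -0.25 to 0.27; adjusted P = 0.979 by edgeR).

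**Figure D2:**
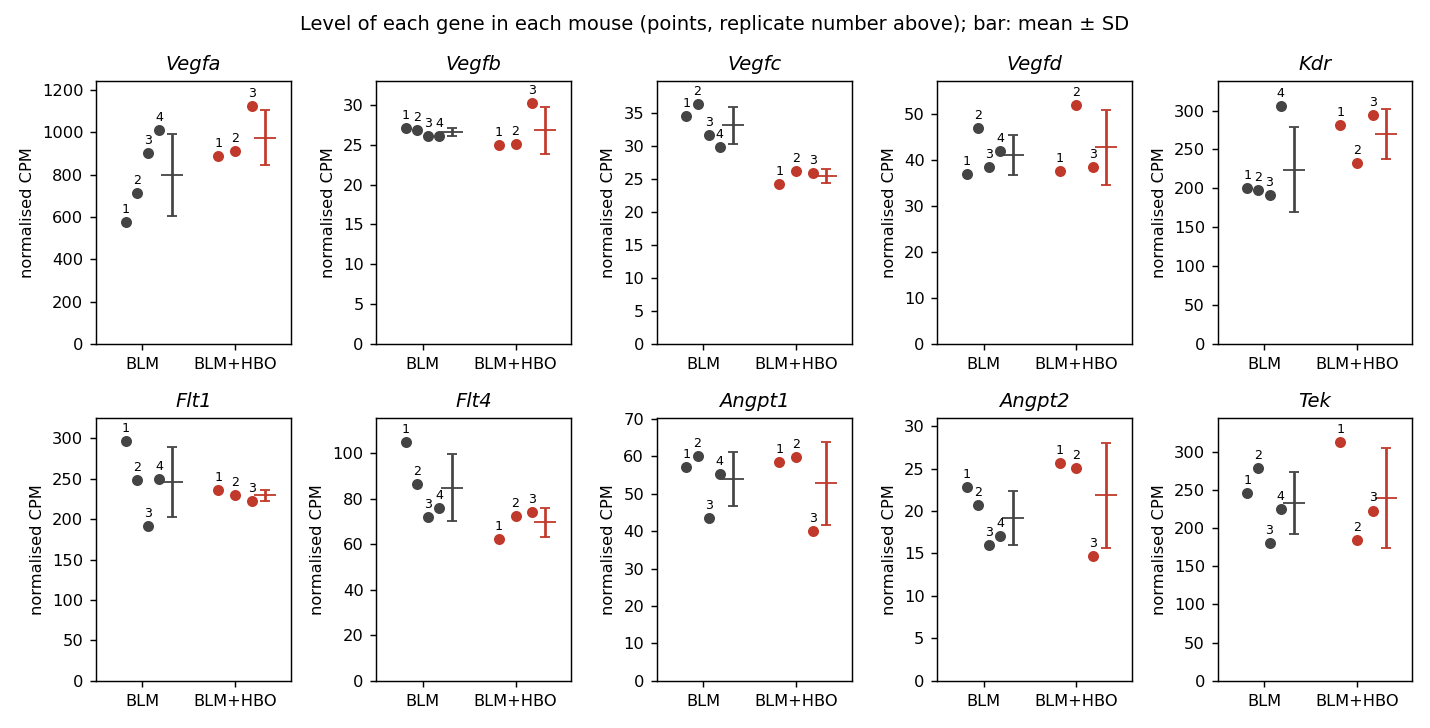
Normalized CPM of each gene (vertical axes, each from 0) in 4 BLM mice (grey) and 3 BLM+HBO mice (red), with replicate numbers above the points and bars for the mean ± SD. *Vegfc* is the panel without overlap, from 29.9 to 36.3 CPM in BLM and from 24.3 to 26.3 CPM in BLM+HBO.

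For *Kdr* a single control mouse decided whether the unadjusted P was below 0.05. The gene lies on chromosome 5 from 75932827 to 75978458 (minus strand, 9030 exonic bases, ENSMUSG00000062960.10). Its level was 201, 198, 191 and 306 CPM in BLM 1 to 4 and 281, 233 and 294 CPM in BLM+HBO 1 to 3. BLM 4 was the highest mouse of all, and the other BLM mice lay below every BLM+HBO mouse. Mean levels of *Kdr* were 224 ± 55.0 (SD, n = 4) and 269 ± 32.0 (SD, n = 3) CPM, a log2 fold change of 0.27 (SE 0.18, 95% interval -0.14 to 0.67). edgeR's quasi-likelihood test gave adjusted P = 0.616 with all mice. Without BLM 4 the log2 fold change of *Kdr* was 0.45, with an unadjusted P below 0.05 and adjusted P = 0.32 by edgeR. Leaving out another mouse gave 0.19 to 0.36, none with P below 0.05.

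*Flt1*, on the same chromosome from 147561604 to 147726011 (minus strand, 13504 exonic bases, ENSMUSG00000029648.13), showed no such pattern. Its level was 296, 248, 191 and 249 CPM in BLM 1 to 4 and 236, 230 and 222 CPM in BLM+HBO 1 to 3. The BLM mice spanned the whole range, and the BLM+HBO mice lay close together within it. For *Flt1* the log2 fold change was -0.10 (SE 0.14, 95% interval -0.42 to 0.22; adjusted P = 0.839 by edgeR). BLM 4, the mouse with high *Kdr*, was not high for *Flt1* or *Flt4*.

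Both angiopoietins overlapped between the groups. *Angpt1* lies on chromosome 15 from 42424723 to 42676977 (minus strand, 5205 exonic bases, ENSMUSG00000022309.9) and shares 737 exonic bases with the antisense gene *Gm17473*. Reads that overlap both genes are left out, because counting did not use strand, and *Gm17473* itself had 0 to 9 reads per mouse. The *Angpt1* level was 57.1, 60.1, 43.6 and 55.3 CPM in BLM 1 to 4 and 58.5, 59.8 and 39.9 CPM in BLM+HBO 1 to 3. BLM+HBO 3 was the lowest mouse and BLM 3 the next, with the rest close together. *Angpt1* had a log2 fold change of -0.04 (SE 0.17, 95% interval -0.41 to 0.34; adjusted P = 0.955 by edgeR).

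*Angpt2*, on chromosome 8 from 18690263 to 18741562 (minus strand, 3690 exonic bases, ENSMUSG00000031465.6), was the least abundant member per base of exon. Its level was 22.8, 20.7, 16.0 and 17.0 CPM in BLM 1 to 4 and 25.7, 25.1 and 14.7 CPM in BLM+HBO 1 to 3. BLM+HBO 1 and 2 lay above every BLM mouse, and BLM+HBO 3 below every one. The log2 fold change of *Angpt2* was 0.19 (SE 0.22, 95% interval -0.30 to 0.67; adjusted P = 0.784 by edgeR). Without BLM+HBO 3 it was 0.40, with an unadjusted P below 0.05 and adjusted P = 0.691 by edgeR for *Angpt2*. Without BLM+HBO 1 it was 0.05 (adjusted P = 0.968 by edgeR).

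*Tek*, the angiopoietin receptor, lies on chromosome 4 from 94739289 to 94874976 (plus strand, 4712 exonic bases, ENSMUSG00000006386.15). Its level was 246, 279, 181 and 225 CPM in BLM 1 to 4 and 312, 184 and 223 CPM in BLM+HBO 1 to 3. The highest and the next to lowest mouse were both BLM+HBO. *Tek* had a log2 fold change of 0.04 (SE 0.20, 95% interval -0.40 to 0.48; adjusted P = 0.958 by edgeR). The sign of the fitted change of *Vegfb*, *Vegfd*, *Flt1*, *Angpt1* and *Tek* turned when a single mouse was left out.

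Levels were compared between the genes per kilobase of exon (RPKM). *Vegfa* stood first with means of 187 ± 45.1 (BLM) and 227 ± 30.3 RPKM (BLM+HBO, SD over 4 and 3 mice), followed by *Tek* with 49.4 ± 8.67 and 50.9 ± 13.9 RPKM. *Kdr* came next with 24.8 ± 6.09 and 29.8 ± 3.54 RPKM. In BLM the order went on with *Flt1* at 18.2, *Vegfd* at 17.1, *Vegfb* at 16.5, *Vegfc* at 13.5, *Angpt1* at 10.4, *Flt4* at 10.3 and *Angpt2* at 5.18 RPKM. The ranges of neighbours overlapped from *Kdr* through *Vegfb*, and for *Angpt1* with *Flt4*, although *Kdr* lay above *Flt1* within each of the 4 mice. The places of *Flt1*, *Vegfd* and *Vegfb*, and of *Angpt1* and *Flt4*, were not the same in every mouse. In BLM+HBO the order was *Vegfd* at 17.8, *Flt1* at 17.0, *Vegfb* at 16.7, *Vegfc* at 10.4, *Angpt1* at 10.1, *Flt4* at 8.47 and *Angpt2* at 5.91 RPKM, with overlaps from *Vegfd* through *Vegfb* and from *Vegfc* through *Flt4*. *Vegfc* lay above *Angpt1* in 4 of 4 BLM mice and in 1 of 3 BLM+HBO mice.

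Ratios within a mouse do not depend on its sequencing depth. Per base of exon, *Vegfa* exceeded *Vegfc* by 9.51, 11.2, 16.2 and 19.3 times in BLM 1 to 4 and by 20.9, 19.8 and 24.8 times in BLM+HBO 1 to 3. This ratio was higher in every BLM+HBO mouse, although BLM 4 came close to BLM+HBO 2. The ratio of *Vegfc* to *Vegfd* was 0.919, 0.761, 0.808 and 0.701 in BLM and 0.632, 0.496 and 0.661 in BLM+HBO, again without overlap. Both ratios contain *Vegfc*, whose own groups did not overlap, and they were not tested. Among the VEGF ligands, *Vegfc* made up 6.01% ± 1.59 of the reads per base in BLM (SD, n = 4), compared with 3.85% ± 0.362 in BLM+HBO (SD, n = 3), and *Vegfa* 74.3% to 85.3% over all mice. The ratio of *Vegfc* to its receptor *Flt4* overlapped, at 1.33 ± 0.161 in BLM and 1.23 ± 0.0696 in BLM+HBO.

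Receptor and angiopoietin ratios overlapped. *Kdr* to *Flt1* was 1.02, 1.19, 1.49 and 1.84 in BLM 1 to 4 and 1.78, 1.51 and 1.97 in BLM+HBO 1 to 3. BLM 1 and BLM 2 were the lowest, and BLM 4 lay among the BLM+HBO mice. *Angpt2* to *Angpt1* was 0.563, 0.487, 0.518 and 0.432 in BLM and 0.620, 0.591 and 0.518 in BLM+HBO. Here BLM+HBO 1 and 2 were highest, and BLM+HBO 3 was level with BLM 3. *Angpt1* made up 61.7% to 69.8% of the angiopoietin reads per base in every mouse.

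**Figure D3:**
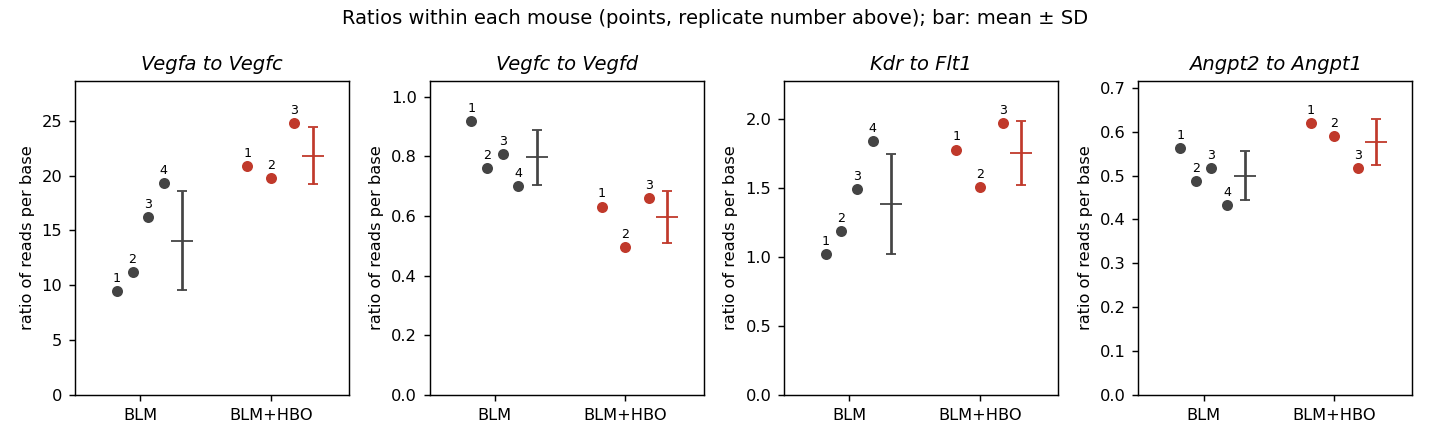
Ratios of reads per base of exon between 4 pairs of genes within each mouse (vertical axes, no unit, from 0), for BLM (grey) and BLM+HBO (red), with bars for the mean ± SD. The *Vegfa* to *Vegfc* ratio runs from 9.51 to 19.3 in BLM and from 19.8 to 24.8 in BLM+HBO, and the ratios of *Kdr* to *Flt1* and of *Angpt2* to *Angpt1* overlap.

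Relatives and partners of the members were read from lists of known genes, which were also chosen with earlier results of these data known. Shares at P below 0.05 are to be read against 10.7% of all genes tested, and a list with 1 call in 9 or 10 genes is close to it. Of 9 co-receptors, processing factors and further VEGF family genes, none was higher and 1 was lower at P below 0.05, with a median log2 fold change of -0.24. The lower gene was *Pgf*, placental growth factor, a ligand of Flt1. Its level was 31.2, 25.5, 23.5 and 22.9 CPM in BLM 1 to 4 and 9.16, 20.6 and 15 CPM in BLM+HBO 1 to 3. All BLM+HBO mice lay below all BLM mice, with BLM+HBO 2 nearest to them. *Pgf* had a log2 fold change of -0.78 (SE 0.25, 95% interval -1.34 to -0.23; adjusted P = 0.423 by edgeR). *Sema3e*, next by P, went the other way, with a log2 fold change of 0.35 (SE 0.16, adjusted P = 0.471 by edgeR). *Ccbe1*, a factor needed to process Vegfc, had a log2 fold change of -0.68 (SE 0.36, adjusted P = 0.527 by edgeR), and *Nrp2*, the neuropilin that binds Vegfc, one of -0.34 (SE 0.18, adjusted P = 0.533 by edgeR). By fitted value 3 genes of the list were higher and 6 lower. Leaving out a mouse gave 1 to 4 calls in this list, the most without BLM+HBO 2 (1 higher and 3 lower).

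Of 10 partners and regulators of Tek, 1 was higher (*Gata3*, log2 fold change 0.67, SE 0.28, adjusted P = 0.453 by edgeR) and none lower, with a median of 0.06. *Gata3* is a transcription factor that lymphocytes also express. *Tie1*, the co-receptor of Tek, was at 229, 273, 246 and 290 CPM in BLM and 302, 248 and 353 CPM in BLM+HBO, with overlap (log2 fold change 0.21, SE 0.14, adjusted P = 0.619 by edgeR). No gene of the list passed when any of BLM 1, BLM 3, BLM+HBO 1 and BLM+HBO 3 was left out, and 5 passed without BLM+HBO 2.

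Genes known to respond to VEGF or to mark sprouting tip cells moved in both directions. Of 21, 4 were higher and 1 lower in BLM+HBO at P below 0.05, against 5.11% and 5.54% of all genes. By fitted value 13 were higher and 8 lower, with a median log2 fold change of 0.26. *Hey1*, a Notch target, was at 66.4, 64.5, 60.7 and 57.4 CPM in BLM 1 to 4 and at 85.6, 70.8 and 81.7 CPM in BLM+HBO 1 to 3. Its groups did not overlap (log2 fold change of *Hey1* 0.35, SE 0.11, adjusted P = 0.423 by edgeR). *Apln*, the tip cell peptide apelin, was at 26.7, 28.7, 28.3 and 47.6 CPM in BLM and at 45.5, 42.9 and 62.8 CPM in BLM+HBO. For *Apln*, as for *Kdr*, BLM 4 was the BLM mouse that reached into the BLM+HBO range (log2 fold change 0.62, SE 0.22, adjusted P = 0.423 by edgeR). *Nrarp*, a Notch regulator, and *Nr4a1*, an immediate-early gene induced by many stimuli, were the other higher genes, with log2 fold changes of 0.60 and 1.04 (SE 0.23 and 0.45). *Igfbp3*, a carrier of insulin-like growth factors, was the lower gene at -0.85 (SE 0.34, adjusted P = 0.442 by edgeR). *Unc5b*, with P not below 0.05, was lower without overlap, at 77 to 97.2 CPM in BLM and 31.6 to 75.5 CPM in BLM+HBO. The log2 fold change of *Unc5b* was -0.55 (SE 0.25, adjusted P = 0.469 by edgeR). The number of calls was 2 without BLM 1 or BLM+HBO 3 and 13 without BLM+HBO 2 (9 higher and 4 lower).

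Markers of vessel types were read beside the members because endothelium carries their receptors. Of 20 pan-endothelial markers, 2 were higher (*Mmrn2* and *Tmem100*) and none lower, a share close to the 10.7% of all genes, with a median log2 fold change of 0.15. Their summed level was 4759 to 5733 CPM in BLM and 5254 to 6299 CPM in BLM+HBO, with overlap, and no marker was at 0. *Mmrn2*, an endothelial matrix protein, had a log2 fold change of 0.41 (SE 0.12, adjusted P = 0.423 by edgeR) without overlap, while *Pecam1* stood at 0.27 (SE 0.15, adjusted P = 0.544 by edgeR). There was 1 call without BLM+HBO 1, and there were 6 without BLM+HBO 2.

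Of 10 markers of aerocytes, the Car4-high capillary cells of the gas exchange surface, 4 were higher and none lower, with a median log2 fold change of 0.45. The count was 1 without BLM 3 or BLM+HBO 3 and 5 without BLM 4 or BLM+HBO 2. The 4 genes were *Fibin*, *Apln*, *Rprml* and *Cyp4b1*, of which *Cyp4b1* is also expressed in airway epithelium and *Apln* is also on the tip cell list. *Rprml* had few reads, 15, 14, 10 and 29 in BLM 1 to 4 and 30, 28 and 88 in BLM+HBO 1 to 3, and its groups overlapped. *Fibin* was at 22.9, 26.8, 21.6 and 25.1 CPM in BLM and 41.9, 25.6 and 41.5 CPM in BLM+HBO, where BLM+HBO 2 lay among the BLM mice (log2 fold change 0.59, SE 0.18, adjusted P = 0.423 by edgeR). The defining *Car4* had a log2 fold change of 0.41 (SE 0.32, adjusted P = 0.663 by edgeR), and the summed level of the list overlapped, at 1943 to 2582 and 2211 to 2612 CPM. *Emp2* gave most of that sum, at 1182 to 1461 CPM in BLM and 1284 to 1338 CPM in BLM+HBO. Of 10 general capillary markers, 1 was higher (*Hilpda*, a lipid droplet protein also induced by hypoxia, 0.46, SE 0.17, adjusted P = 0.434 by edgeR) and none lower, with a median of 0.08. Leaving out any of BLM 1, BLM 2, BLM+HBO 1 and BLM+HBO 3 left no general capillary marker past P below 0.05, and 4 did without BLM+HBO 2.

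Of 10 venous and systemic vessel markers, 3 were lower in BLM+HBO at P below 0.05 and none higher. All 10 had a negative fitted change, with a median log2 fold change of -0.38, of which 4 (*Slc6a2*, *Amigo2*, *Nr2f2* and *Ephb4*) lay between -0.08 and -0.03. Their sum was 1659 to 1924 CPM in BLM and 1242 to 1575 CPM in BLM+HBO, without overlap, but *Vwf* alone gave more than the other genes together. Without it the sum was 762, 814, 744 and 709 CPM in BLM 1 to 4 and 599, 735 and 638 CPM in BLM+HBO 1 to 3, and the groups overlapped. *Ackr1*, a chemokine receptor of venules, was at 17.5, 10.5, 12.3 and 15 CPM in BLM and 5.75, 9.29 and 3.79 CPM in BLM+HBO, all BLM+HBO mice being lower. The log2 fold change of *Ackr1* was -1.14 (SE 0.31), with adjusted P = 0.423 by edgeR and adjusted P = 0.0266 by DESeq2. The adhesion protein gene *Selp* and the clotting factor gene *Vwf* were lower without overlap as well, by log2 fold changes of -1.03 and -0.41 (SE 0.34 and 0.14, adjusted P = 0.423 for both by edgeR). Leaving out a mouse gave 2 (without BLM+HBO 1) to 5 (without BLM+HBO 2) calls in the venous list.

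Lymphatic markers bear on *Vegfc* and *Flt4*. Of 9 tested, 1 was lower (*Reln*) and none higher, and the median log2 fold change was -0.47. Their summed level overlapped, at 364 to 646 CPM in BLM and 405 to 601 CPM in BLM+HBO. *Prox1*, the transcription factor that defines lymphatic endothelium, was at 13.1, 9.92, 8.73 and 6.69 CPM in BLM 1 to 4 and at 6.39, 7.71 and 6.67 CPM in BLM+HBO 1 to 3. BLM 1 was the highest mouse for *Prox1*, as it was for *Flt4*, and BLM 4 lay within the BLM+HBO range (log2 fold change -0.47, SE 0.24, adjusted P = 0.513 by edgeR). *Lyve1*, also found on macrophages, had a log2 fold change of 0.14 (SE 0.27, adjusted P = 0.884 by edgeR). It gave a large part of the lymphatic sum, at 329, 299, 221 and 167 CPM in BLM 1 to 4 and 380, 190 and 270 CPM in BLM+HBO 1 to 3. No lymphatic marker passed without BLM 1, BLM 2 or BLM+HBO 3, and 4 did without BLM 4. The arterial list had 2 of 10 higher (*Hey1* and *Efnb2*) and 1 lower (*Mgp*, which fibroblasts and smooth muscle also make), with a median of -0.07, and had 1 call when any of BLM 1, BLM 2, BLM+HBO 1 and BLM+HBO 3 was left out and 6 without BLM+HBO 2.

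**Figure D4:**
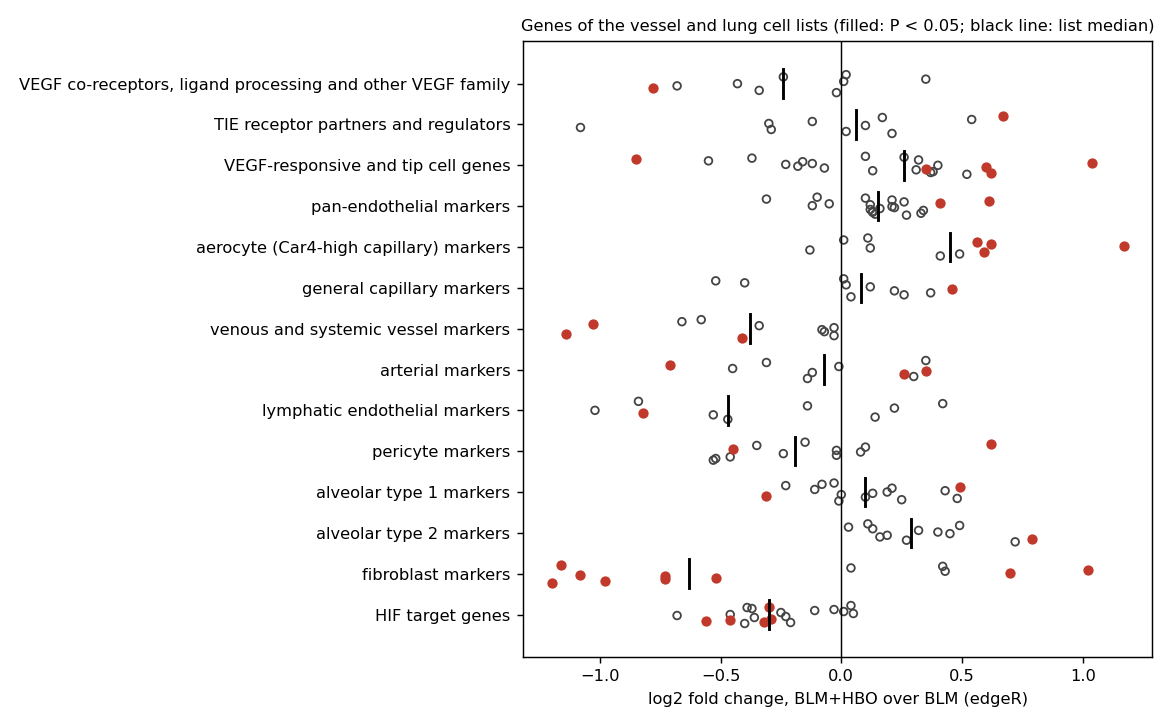
Log2 fold change of each tested gene of 14 lists (horizontal axis, log2 units, BLM+HBO over BLM, edgeR), with filled red points for P below 0.05 and a black line at the list median. All venous markers lie left of 0, 4 of them between -0.08 and -0.03, with a median of -0.38, aerocyte markers mostly right of it with a median of 0.45, and the heart muscle list is left out.

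The genes most like a member over the 7 mice were found by Pearson's r of log2 CPM among 17439 other genes, as a description with no test. *Vegfa* varied most like *Madd* (r = 0.988) and *Il17re* (r = 0.984), and *Kdr* most like *Git2* (r = 0.976) and *Dcaf4* (r = 0.974). *Git2* was at 84.7, 82.5, 81.5 and 105 CPM in BLM 1 to 4 and 104, 90.1 and 112 CPM in BLM+HBO, with BLM 4 high as for *Kdr*. *Flt1* was nearest to *Igkv6-32* (r = 0.983), an antibody segment at 13.6 CPM in BLM 1 and 0.494 to 3.95 CPM elsewhere, and to *Bcl2l13* (r = 0.981). *Angpt1* was nearest to *Rgs2* (r = 0.960) and *Plxdc2* (r = 0.959), *Angpt2* to *Ghitm* (r = 0.961) and *Sppl2a* (r = 0.958), and *Tek* to *Lrrc8b* (r = 0.982) and *Anxa11* (r = 0.974). Among these members, the number of genes with r above 0.95 ran from 5 for *Angpt2* and 6 for *Angpt1* to 76 for *Vegfa*.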

How the data were processed

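RNA from the right lung lobes of 4 BLM and 3 BLM+HBO mice was sequenced as paired ends after a NEBNext Ultra preparation. Mice that lost too little weight had been excluded by the study, as judged on day 7 and again after HBO had begun. After trimming by Trim Galore, alignment was to GRCm38 with HISAT2 (2.2.0 in the submitters' processing notes), and the authors deposited raw read counts per gene from featureCounts with default options. Those options ignore strand, and a read with more than a single alignment or gene is not counted. The annotation release is not given in the sources used here. Symbols came from GENCODE vM21, which gave one to 55141 of 55401 genes. The exonic bases of all 10 members matched the deposited lengths, and the *Vegfa* identifier differed in its version.

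Low counts were removed by filterByExpr with a minimum count of 10 and a minimum total of 15, and TMM factors lay between 0.964 and 1.036. Groups were compared with edgeR 4.0.16 (quasi-likelihood test, all 7 mice, group as the sole term, common biological coefficient of variation 0.222) under R 4.3.3, with Benjamini-Hochberg adjustment over the 17465 genes tested. The thresholds were P below 0.05, with and without a fold change above 1.5, and adjusted P below 0.05. Each SE was derived as the absolute log2 fold change over the square root of the F statistic of the quasi-likelihood test. The 95% intervals were built from this SE with the t distribution. Log2 CPM used a prior count of 2. The alternatives were DESeq2 1.42.0, limma-trend (limma 3.58.1), RLE and upper-quartile factors, no filter, a filter of 1 CPM in 3 mice, the omission of each mouse in turn and a replicate block. Between libraries of a group the lowest chi-square per gene was 22.1, above sampling noise, so each mouse counted as 1 replicate. The sources used here do not say which mice were housed or processed together.

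The members and the gene lists were chosen with earlier results of these data known. The rule for names took the 10 members, up to 5 genes with the smallest P in each list, and the 2 genes most correlated with *Vegfa*, *Kdr*, *Flt1*, *Angpt1*, *Angpt2* and *Tek*. *Car4*, *Emp2*, *Lyve1*, *Slc6a2*, *Amigo2*, *Nr2f2*, *Ephb4*, *Unc5b* and *Gm17473* fall outside it and were named after their values were seen. Promoters came from RefSeq. *Aldoa*, which has several identifiers, was left out of the HIF list.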

Additional observations from a re-analysis of the deposited data

Results flagged for a closer look

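In BLM 4 *Kdr* was at 306 CPM, far from the other BLM mice at 191 to 201 CPM, a gap of 0.913 of the group's range. The same mouse had the highest total count of its group, 19002242, where BLM 1 to 3 lay between 18436336 and 18452895 (a gap of 0.971 of the range). Dixon's 95% critical value was exceeded in 2 of 36 groups examined, and chance alone gives that in about 1 of 20.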

How the results depend on the processing

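The log2 fold change of *Vegfc* stayed between -0.42 and -0.33 in all 15 alternatives, with P below 0.05 in each. Of 150 refits of the 10 members, 135 kept direction and side of the threshold. The number of members with P below 0.05 was 1 with DESeq2, limma-trend, RLE, upper-quartile factors and the filter of 1 CPM, 2 without a filter on low counts (*Flt4* added), 0 where a fold change above 1.5 was also required, and 1 to 2 when a mouse was left out. With the replicate block, on 6 mice, it was 3 (*Kdr* at 0.45 and *Vegfa* at 0.43 added), against 2 without the block on the same 6 mice. The replicate numbers are not stated to pair mice, and the deviations of mice sharing a number correlated at -0.0111, -0.0815 and 0.169, so they were not taken as pairs. Over all genes, 1861 with P below 0.05 became 3008 without a filter, 1098 with the fold change limit, and 1017 (without BLM+HBO 1) to 2851 (without BLM+HBO 2) when a mouse was left out. Of 184 list genes tested, 51 became 82 without a filter and 25 (without BLM+HBO 1) to 89 (without BLM+HBO 2) when a mouse was left out. DESeq2 called 151 genes at adjusted P below 0.05 and edgeR called 0. With a mouse left out, the log2 fold change ran from -0.14 to 0.13 for *Angpt1* (above 0 without BLM 2 or BLM+HBO 3), from -0.20 to 0.0019 for *Flt1* (above 0 without BLM 1), from -0.19 to 0.20 for *Tek* (below 0 without BLM 3 or BLM+HBO 1), from -0.088 to 0.060 for *Vegfb* (below 0 without BLM+HBO 3, and -0.0001 with the replicate block) and from -0.11 to 0.14 for *Vegfd* (below 0 without BLM+HBO 2), none of these with P below 0.05. The cause of these shifts was not tested. Each member had 292 reads or more per mouse, and the number of mice limits the precision.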

Other observations

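Cells that make ligands for these receptors were read from their markers. Of 12 alveolar type 2 markers, all had a positive fitted change, and 1 had P below 0.05, *Sftpa1*, a surfactant protein gene (log2 fold change 0.79, SE 0.31, adjusted P = 0.441 by edgeR). Its level was 1070, 1708, 1454 and 1592 CPM in BLM 1 to 4 and 3147, 1199 and 3231 CPM in BLM+HBO 1 to 3, BLM+HBO 2 lying among the BLM mice. Of 15 alveolar type 1 markers, 1 was higher (*Sec14l3*) and 1 lower (*Pdpn*), with a median log2 fold change of 0.10. No type 2 marker passed when any of BLM 1, BLM 3, BLM+HBO 1 and BLM+HBO 3 was left out, and 6 did without BLM+HBO 2.

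Pericytes and fibroblasts are sources of Angpt1. Of 12 pericyte markers, 1 was higher (*Ebf1*, 0.62, SE 0.20, adjusted P = 0.423 by edgeR) and 1 lower (*Postn*, -0.45, SE 0.19, adjusted P = 0.454 by edgeR), neither of which is particular to pericytes, since *Ebf1* also marks B cells and *Postn* activated fibroblasts. The defining *Pdgfrb* was at 263, 284, 207 and 266 CPM in BLM and 115, 260 and 155 CPM in BLM+HBO, with overlap through BLM 3 and BLM+HBO 2 (log2 fold change -0.53, SE 0.25, adjusted P = 0.489 by edgeR). The pericyte list had 3 markers with a positive and 9 with a negative fitted change, and a median log2 fold change of -0.19. It had no call without BLM+HBO 1 and 4 without BLM 3 or BLM+HBO 2.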
